A study of Mus musculus with 8 samples.

Results

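Acetyl-CoA carries the acetyl unit between the breakdown of fuels and the synthesis of lipids, and it is also the donor for histone acetylation. The 9 enzymes and carriers described here make, move or spend it, and were followed in newly made RNA of mouse embryonic stem cells with mutant histone H3.3. They were taken by symbol from a fixed list, Acss1, Acss2, Pdha1, Dlat, Cs, Slc25a1, Acly, Acaca and Crat, and all 9 were found among the 16896 genes that appear in at least 1 of the 4 tables. The list was chosen by symbol with the authors' fold changes in view, Acss1 being selected on its fall in the mutant lines, so its values are a description and carry no test here. The calls of the other 8 are the authors' and are read as descriptions too.

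All libraries came from ES-E14TG2a (E14) cells, an embryonic stem cell line of a male mouse, labelled with 500 nM 4-thiouridine (4sU) for 5 min. In this assay (TT-seq) the uridine analogue enters RNA as it is made and the labelled fragments are drawn out and sequenced, so a value reflects RNA synthesis over minutes more than the standing pool. Media with LIF and with LIF and 2i are both described by the submitters, and which was used for these libraries is not stated. The genes H3f3a and H3f3b both encode H3.3, and the allele written A is read here as the one with alanine in place of lysine (K122A). Wildtype cells gave 3 libraries, which the submitters call biological replicates. Single-targeted lines carried 2 mutant alleles, either in H3f3a (H3f3a A/A H3f3b WT/WT, 1 line) or in H3f3b (H3f3a WT/WT H3f3b A/A, 1 line). Dual-targeted lines carried 3. They were 2 clones with H3f3b still heterozygous (H3f3a A/A H3f3b WT/A), called the clones here, and 1 line with H3f3a still heterozygous (H3f3a WT/A H3f3b A/A), called the reciprocal line here. Every mutant line thus kept at least 1 wildtype allele and was sequenced once, so error in a mutant group is the difference among lines.

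The authors deposited 4 tables of DESeq2 comparisons, which hold no value for a single library, so the depth of each library is unknown. In the authors' deposited table of dual-targeted and wildtype cells the mean normalized counts added up to 1.26e+07. A gene is called where the adjusted p in the authors' deposited table is under 0.05, and log2 fold changes are given as deposited, with their standard error (SE). They are shrunken toward 0, so sizes in different tables are not strictly comparable. Because the 4 tables overlap in their libraries, a mean for each group could also be rebuilt by subtraction. These rebuilt means are in normalized counts, carry no error, and are given for wildtype, single-targeted lines, the 2 clones and the reciprocal line. All 10 of the embryonic stem cell markers checked were measured in all 4 tables, with rebuilt sums of 19080 in wildtype, 18988 in single-targeted lines, 23437 in the clones and 23994 in the reciprocal line. Of these markers 6 were called higher and 0 lower in dual-targeted lines, 5 and 0 in the clones, and 1 and 0 in single-targeted lines. Of all genes tested 10.8%, 9.05% and 1.49% were higher in the same comparisons. Of the markers of other cell types, 4 of 8 for endoderm, 4 of 6 for mesoderm, 1 of 6 for neural ectoderm, 5 of 6 for trophectoderm and 4 of 7 for fibroblasts were not in the dual-targeted table. The endoderm marker sum went from 451 in wildtype to 1005 in the clones and 1527 in the reciprocal line, nearly all of it from Lamb1. The neural ectoderm sum went from 385 to 504 and 804. Nes and Tubb3 were the 2 of its 5 measured markers called in dual-targeted lines, both higher, where 10.8% of all genes tested were higher. Sox1 (-0.32 ± 0.37), Pax6 (-0.33 ± 0.24) and Neurod1 (0.45 ± 0.42) were not called there in the authors' deposited table. In the clones 2 neural markers were called higher and 1 lower. The fibroblast sum went from 9593 to 4616 and 5377 through Fn1 alone, while Vim was called higher and Thy1 was not called. The part of these shifts in the results was not tested, and in bulk libraries fewer cells of a type and less RNA per cell cannot be told apart.

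As background, mammalian cells fill separate acetyl-CoA pools. In mitochondria, pyruvate dehydrogenase makes it from pyruvate, and citrate synthase joins it to oxaloacetate. The citrate carrier Slc25a1 takes citrate to the cytosol, where Acly splits it back to acetyl-CoA for lipid synthesis and for histone acetylation. Acetate is a second source, activated by Acss1 in mitochondria and by Acss2 in the cytosol and nucleus. Mouse embryonic stem cells are also known for making acetyl-CoA from threonine through Tdh.

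Both acetate-activating enzymes were lower in dual-targeted lines, the pyruvate dehydrogenase subunit Pdha1 was higher, and the citrate route was not called. Of the 9 genes, 2 were lower and 1 higher in dual-targeted lines, a share of 33.3%, where 20.9% of all genes tested were called. In single-targeted lines 1 of the 9 was called, lower, against 2.96% of all genes. Between dual-targeted and single-targeted lines 1 was called, lower in dual-targeted, against 7.06% (4.37% higher and 2.69% lower). The 2 clones alone against wildtype gave 2 lower and 1 higher, against 19.3%. Since the list was made with these results known, nothing is read from these shares. The comparisons share libraries, so they are not independent of each other.

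Acss1 and Acss2 both lie on chromosome 2, and the DNA just upstream of each is shown because these were the 2 enzymes that were lower together. Acss1 (ENSMUSG00000027452.11) spans 150618105 to 150668500 on the minus strand and Acss2 (ENSMUSG00000027605.18) spans 155517948 to 155585724 on the plus strand of GRCm38. RefSeq promoter windows of 250 bases before the start (GRCm38.p6) were found for 8 of the 9 genes. The stretches below are the parts of those windows outside annotated exons of the gene, with 18 exonic bases at the end of that of Acss1, written 5′ to 3′ on the transcript's strand, with GGGCGG or its reverse complement in capitals. The stretch of Acss1 lies between annotated first exons of that gene, since the RefSeq start is 260 bases inside the GENCODE gene, and its last 18 bases belong to a 5′ UTR. The stretch of Acss2 ends at the base before the GENCODE gene and lies in an intron of Ggt7 on the other strand.
Acss1, chr2:150668241-150668337, minus strand: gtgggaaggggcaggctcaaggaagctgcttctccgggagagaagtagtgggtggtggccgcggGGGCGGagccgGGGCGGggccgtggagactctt
Acss2, chr2:155517793-155517947, plus strand: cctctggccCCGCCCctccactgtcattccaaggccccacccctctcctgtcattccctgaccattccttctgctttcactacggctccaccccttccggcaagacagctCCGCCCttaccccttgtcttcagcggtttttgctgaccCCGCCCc
The 6 bases GGGCGG, the GC box, were searched on both strands and occurred at 2 positions in the 250-base window of Acss1 and at 4 in that of Acss2. They occurred at least once in 32.7% of all 32851 RefSeq windows of that length. CCAAT was found once in the window of Acss2 and not in that of Acss1 (33.8% of all windows hold it), and neither window held the E-box CACGTG (6.02% of all windows), searched in the same way. Such matches describe letters and not binding. The window of Acss1 held 15 CpG and that of Acss2 held 13, where the median window has 6. Neither feature was particular to these 2 genes, since the windows of Dlat, Cs, Acly, Slc25a1 and Pdha1 held 13 to 25 CpG, and those of Acly and Slc25a1 held 4 GC boxes each. The window of Cs held 2 GC boxes, that of Dlat 1 and that of Pdha1 0. The window of Acaca held 0 CpG and 0 GC boxes, and its RefSeq start is 65766 bases inside the GENCODE gene.

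Acss1, the mitochondrial acetyl-CoA synthetase, had rebuilt means of 527 normalized counts in wildtype, 108 in single-targeted lines, 34.5 in the clones and 61.8 in the reciprocal line. Every mutant group lay far below wildtype, at 20.4%, 6.55% and 11.7% of it, and the groups with 3 mutant alleles lay below the group with 2. The value of the reciprocal line rests on the scales used to join the tables, and came out at -11.2 without them. Without scales the median gene of the reciprocal line lies at -0.48 from wildtype on the log2 scale, against -0.03 with them, and the value of Acss2 in that line becomes 32.6. In the authors' deposited table the log2 fold change of Acss1 was -3.58 ± 0.27 (SE) in dual-targeted lines, 12.0-fold lower, and by size it was the 2nd lowest of 11561 genes whose mean count was at least 50. The authors' deposited table of single-targeted lines gave -2.22 ± 0.25, 4.67-fold lower and again the 2nd lowest, of 11686 genes. For the clones alone the authors' deposited table gave -3.89 ± 0.29, 14.9-fold lower. Set directly against each other, dual-targeted lines were lower than single-targeted lines, with a log2 fold change of -1.04 ± 0.46 in the authors' deposited table, with an approximate 95% interval of -1.95 to -0.14.

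Acss2, the cytosolic and nuclear enzyme that recaptures acetate, had rebuilt means of 191 in wildtype, 136 in single-targeted lines, 78.3 in the clones and 64.9 in the reciprocal line. As for Acss1, the groups with 3 mutant alleles lay below the group with 2, and here the reciprocal line was the lowest. The authors' deposited table gave a log2 fold change of -1.28 ± 0.25 in dual-targeted lines (2.44-fold lower, adjusted p = 1.20e-06) and -1.18 ± 0.28 in the clones alone (adjusted p = 7.20e-05). In single-targeted lines it was -0.20 ± 0.23 in the authors' deposited table (adjusted p = 0.451), with an approximate interval of -0.66 to 0.25. The difference between dual-targeted and single-targeted lines, -0.65 ± 0.35, missed the threshold in the authors' deposited table (adjusted p = 0.0611), and its interval ran from -1.34 to 0.03. Acss2 overlaps Ggt7 and Gss on the opposite strand, and the sources used here do not say whether counting used strand, so reads of such pairs may not be separated. In the authors' deposited table of dual-targeted lines Gss stood at -0.32 ± 0.22 (adjusted p = 0.227) and Ggt7 at 0.00 ± 0.30 (adjusted p = 0.991).

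**Figure D1:**
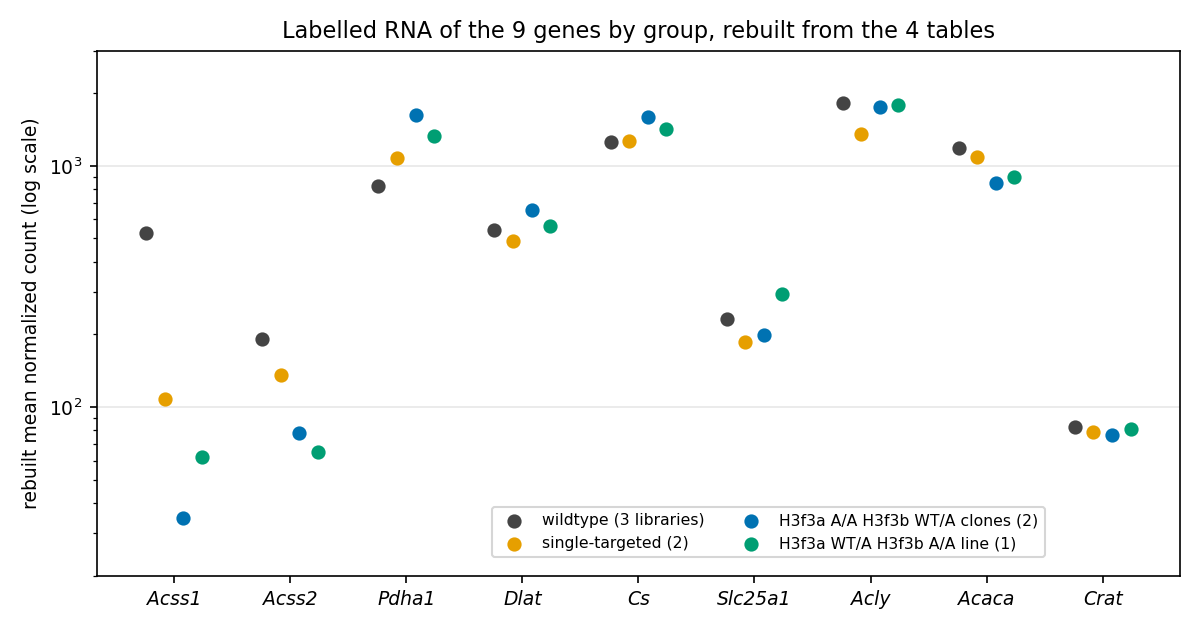
Rebuilt mean normalized counts (log scale) of the 9 genes in wildtype cells, single-targeted lines, the 2 clones and the reciprocal line; points are group means without error, and the number of libraries is in brackets. Acss1 runs from 527 in wildtype to 34.5 in the clones, while the 4 values of Crat lie between 76.6 and 82.9.

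Pyruvate dehydrogenase is the main mitochondrial source of acetyl-CoA. Pdha1, its X-linked E1 alpha subunit (X, 160122209 to 160138413), had rebuilt means of 828 in wildtype, 1074 in single-targeted lines, 1620 in the clones and 1328 in the reciprocal line. All mutant groups lay above wildtype, and those with 3 mutant alleles were the highest. The authors' deposited table gave a log2 fold change of 0.83 ± 0.19 in dual-targeted lines (1.78-fold higher, adjusted p = 4.30e-05) and 0.91 ± 0.21 in the clones (adjusted p = 8.12e-05). In single-targeted lines Pdha1 stood at 0.24 ± 0.19 (adjusted p = 0.359) according to the authors' deposited table, and the dual-targeted lines differed from them by 0.37 ± 0.21 (adjusted p = 0.123). The median of 332 X-linked genes whose mean count was at least 50 was 0.03 in dual-targeted lines. Map3k15 overlaps Pdha1 on the opposite strand and stood at -0.20 ± 0.24 (adjusted p = 0.51) in the authors' deposited table of dual-targeted lines. Dlat, the E2 subunit that hands the acetyl group to coenzyme A (chromosome 9, 50634633 to 50659780), had rebuilt means of 544, 486, 654 and 563 in the same order of groups, on both sides of wildtype. Joined without scales, the reciprocal line had 433 for Dlat against 578 in wildtype, so its side of wildtype depends on the joining. In the authors' deposited table Dlat was at 0.17 ± 0.17 in dual-targeted lines (adjusted p = 0.46), with an interval of -0.16 to 0.50.

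Cs, Slc25a1 and Acly, which carry acetyl units to the cytosol as citrate, missed the threshold in all 4 comparisons. Cs, citrate synthase (chromosome 10, 128337734 to 128362479), had rebuilt means of 1256 in wildtype, 1273 in single-targeted lines, 1594 in the clones and 1418 in the reciprocal line. Joined without scales, Cs had 1341 in wildtype, 1217 in single-targeted lines and 1110 in the reciprocal line, so in these groups its side of wildtype depends on the joining. Its log2 fold change in dual-targeted lines was 0.25 ± 0.17 in the authors' deposited table (adjusted p = 0.234), and the interval of -0.07 to 0.58 includes 0. Slc25a1, the citrate carrier (chromosome 16, 17925223 to 17928219), had rebuilt means of 232, 186, 199 and 293, so the clones lay below wildtype. The reciprocal line lay above wildtype only with the scales, and without them Slc25a1 had 245 in both. The authors' deposited table gave Slc25a1 -0.00 ± 0.21 for dual-targeted lines (adjusted p = 0.991) and -0.15 ± 0.23 for the clones (adjusted p = 0.648), and the reciprocal line was not tested by itself. Acly, ATP citrate lyase (chromosome 11, 100476353 to 100528000), had rebuilt means of 1814 in wildtype, 1356 in single-targeted lines, 1748 in the clones and 1781 in the reciprocal line. Here the single-targeted lines were the lowest group, unlike the pattern of Acss1. In the authors' deposited table the log2 fold change of Acly was -0.03 ± 0.16 for dual-targeted lines (adjusted p = 0.904, interval -0.34 to 0.27) and -0.24 ± 0.20 for single-targeted lines (adjusted p = 0.37).

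The remaining pair spends or stores the acetyl unit. Acaca, acetyl-CoA carboxylase 1, which commits acetyl-CoA to fatty acid synthesis (chromosome 11, 84129672 to 84401651), had rebuilt means of 1180 in wildtype, 1083 in single-targeted lines, 846 in the clones and 897 in the reciprocal line. All mutant groups were below wildtype, and those with 3 mutant alleles were the lowest. The authors' deposited table gave -0.38 ± 0.19 in dual-targeted lines, which missed the threshold (adjusted p = 0.0788), as did the clones (-0.39 ± 0.22, adjusted p = 0.122). Single-targeted lines stood at -0.05 ± 0.13 (adjusted p = 0.877) in the authors' deposited table. Dual-targeted lines differed from them by -0.21 ± 0.20 (adjusted p = 0.365) there, so the order of the groups rests on rebuilt means alone. Crat, the carnitine acetyltransferase that buffers mitochondrial acetyl-CoA as acetylcarnitine (chromosome 2, 30400471 to 30415813), had rebuilt means of 82.9, 78.7, 76.6 and 81.0 in the same order of groups, close to each other. Its log2 fold change in dual-targeted lines was -0.05 ± 0.24 in the authors' deposited table (adjusted p = 0.883), and at a mean count of 80.5 the interval of -0.52 to 0.42 was the widest among the 6 genes that were not called.

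**Figure D2:**
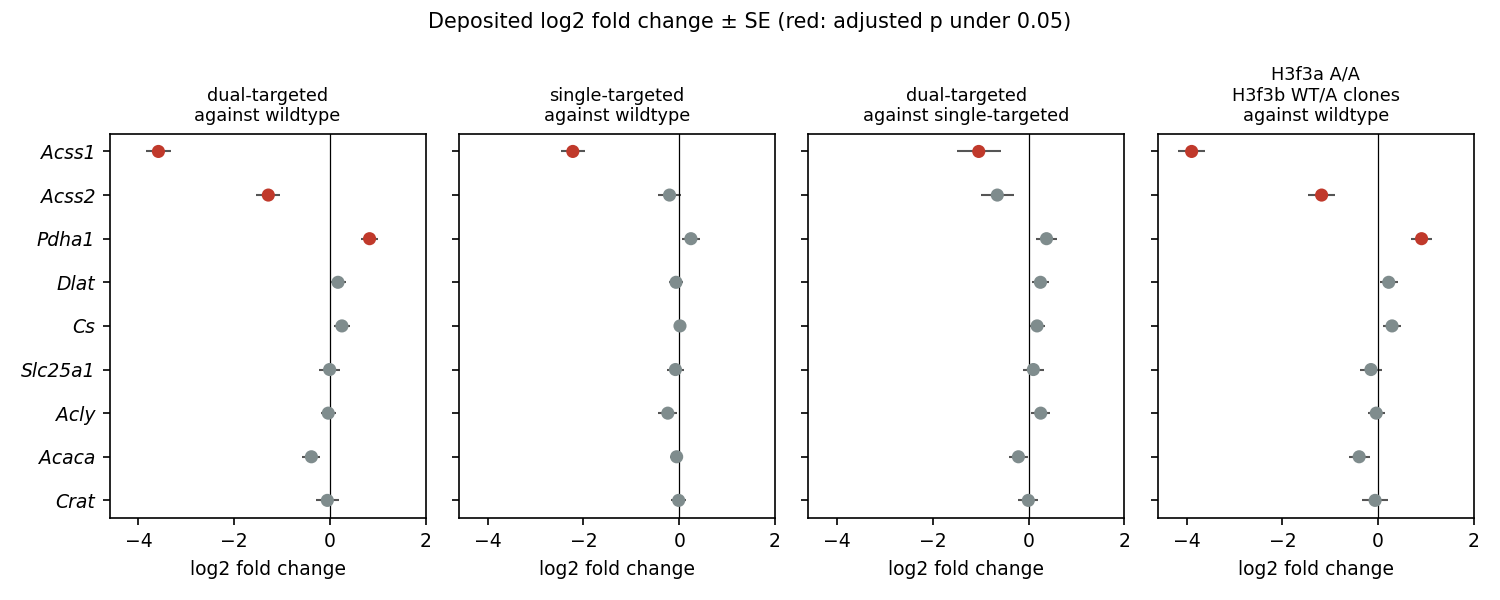
Deposited log2 fold changes of the 9 genes in the authors' 4 comparisons; bars are the deposited SE, red points have an adjusted p under 0.05. Acss1 is left of 0 in all 4 panels, Acss2 and Pdha1 are red in the dual-targeted and clone panels, and the other 6 lie between -0.39 and 0.29.

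Acss1 lay far below the genes beside it on chromosome 2. The 3 measured genes on each side were Gm14127, Zfp345 and Apmap, and Entpd6, Pygb and Abhd12. Among these 6 the lowest log2 fold change in dual-targeted lines was that of Pygb, brain glycogen phosphorylase, at -0.22 ± 0.21 (adjusted p = 0.416) in the authors' deposited table. The highest was that of Apmap at 0.42 ± 0.24 (adjusted p = 0.112) according to the authors' deposited table, and none of the 6 was called there. Further out, Gm10130 was called higher (0.50 ± 0.23, adjusted p = 0.0477, by the authors' deposited table) and was picked out after its value was seen. The median of 878 genes of chromosome 2 whose mean count was at least 50 was 0.05. Among the 6 measured genes on each side of Acss2, Pigu (-0.63 ± 0.19, adjusted p = 0.00292) and Edem2 (-0.64 ± 0.26, adjusted p = 0.0199) were called lower in the authors' deposited table of dual-targeted lines, and they were picked out after their values were seen. The overlapping gene E130215H24Rik, on the opposite strand at the start of Acss1, has no value in the tables.

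**Figure D3:**
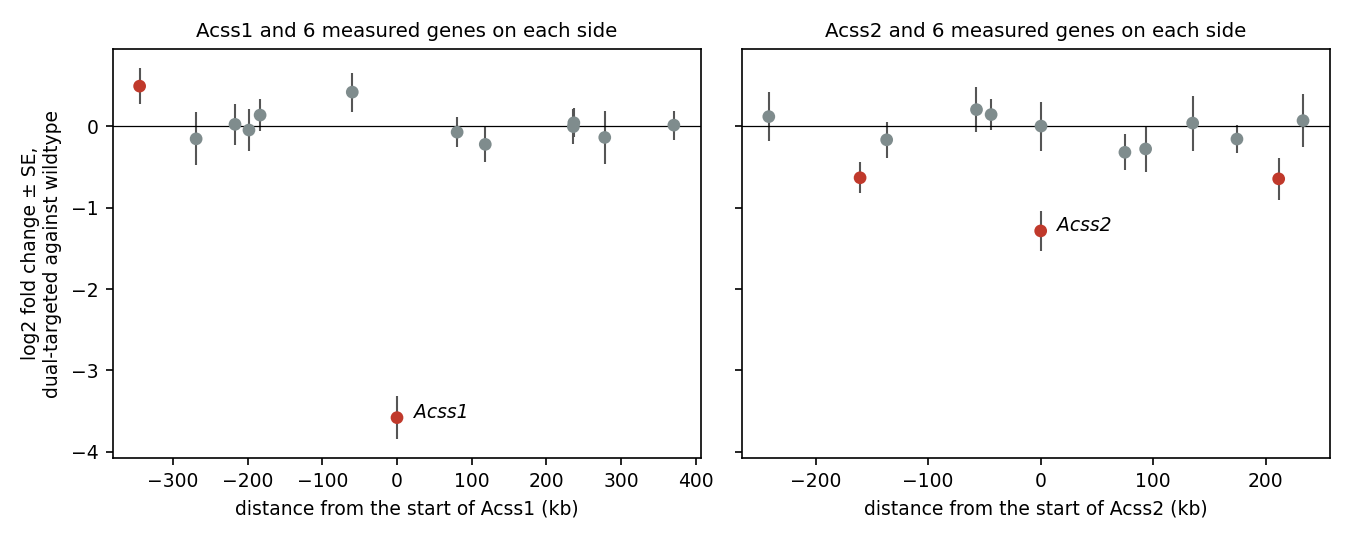
Deposited log2 fold change ± SE in dual-targeted against wildtype cells of Acss1 (left), Acss2 (right) and 6 measured genes on each side, by distance between gene starts in kb; red points have an adjusted p under 0.05. Acss1 sits at -3.58 while its 12 neighbours lie between -0.22 and 0.50.

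The genes whose pattern was most like that of Acss1 were found by distance over 3 non-overlapping mutant groups, each as a log2 ratio of rebuilt means to wildtype, among 11537 other genes with a wildtype mean of 50 or more. Lrrc31, a leucine-rich repeat gene, was the nearest at a distance of 1.16, with rebuilt means of 1266 in wildtype, 359 in single-targeted lines, 87.1 in the clones and 71.6 in the reciprocal line. Next came Crispld1 (1.17), Patl2 (1.51), Sgo2b (1.54) and Gm37472 (1.62). Sgo2b lies on chromosome 8 and Gm37472 on chromosome 14, and medians of both chromosomes are given below. The log2 ratio of Acss1 was -2.29 in single-targeted lines, -3.93 in the clones and -3.09 in the reciprocal line, and Lrrc31 had -1.82, -3.86 and -4.14. The reciprocal line is 1 library, and its mean for Acss1 was -11.2 without the scales, so these distances exist only with them. The single-targeted fall of Crispld1 is seen in its rebuilt ratio (-1.64) and not in the authors' deposited table (-0.05 ± 0.18), and its likeness to Acss1 is one of rebuilt means. The same holds for Sgo2b (-2.25 against -0.07 ± 0.20 in the authors' deposited table).

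Genes elsewhere in acetyl-CoA metabolism were read from 10 lists set by route. In dual-targeted lines 28 of the other 139 genes measured were called, 6 higher and 22 lower, a share of 20.1% where 20.9% of all genes were called (10.8% higher and 10.1% lower). In single-targeted lines 12 of 137 were called, 1 higher and 11 lower, where 1.49% of all genes were higher and 1.47% lower. In the clones 25 of 138 were called, 5 higher and 20 lower, where 9.05% of all genes were higher and 10.3% lower. The medians of these genes were -0.08, -0.05 and -0.06 on the log2 scale, and those of all genes tested were 0.01, 0.00 and 0.00. Genes of chromosome 8 with a mean count of 50 or more had a median of -0.32 in dual-targeted lines and -0.21 in single-targeted lines, and genes of chromosome 14 had a median of -0.51 in the clones. Without chromosomes 8 and 14 the counts were 5 higher and 15 lower of 127 in dual-targeted lines, 1 and 5 of 125 in single-targeted lines, and 4 and 12 of 126 in the clones.

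Beside Pdha1, pyruvate dehydrogenase and its regulators moved in both directions. Of the 16 other genes of this route, 2 rose and 4 fell in dual-targeted lines, with a median of 0.09. That is 37.5% called, where 20.9% of all genes were called (10.8% higher and 10.1% lower), and the list itself was not tested. Pdhx, the subunit that binds the E3 enzyme, rose by 0.78 ± 0.20 (adjusted p = 3.99e-04) according to the authors' deposited table, and Pdhb, the E1 beta subunit, was higher there by 0.59 ± 0.19 (adjusted p = 0.00553). So 3 of the 5 subunit genes were higher, while Dlat and Dld (0.33 ± 0.19, adjusted p = 0.161) were not called in the authors' deposited table. Pdhb and Dld were named after their values were seen, so this count is a description. Of the regulators of pyruvate dehydrogenase, 4 were called lower, where 10.1% of all genes were lower. The other kinases and phosphatase of the list were not called in the authors' deposited table. They were Pdk2 (0.06 ± 0.29, adjusted p = 0.855), Pdk3 (-0.09 ± 0.24, adjusted p = 0.785) and Pdp1 (0.01 ± 0.23, adjusted p = 0.979). Pdp2, a phosphatase that activates pyruvate dehydrogenase, fell by 0.93 on the log2 scale (SE 0.20, adjusted p = 1.88e-05) in the authors' deposited table. Pdpr, a phosphatase regulatory subunit, was at -0.65 ± 0.18 (adjusted p = 0.00143) there. Pdp2 and Pdpr lie on chromosome 8, whose median was given above. The inhibitory kinases Pdk1 (-0.41 ± 0.16, adjusted p = 0.0260) and Pdk4 (-0.66 ± 0.28, adjusted p = 0.0263) were called lower in the authors' deposited table as well. In single-targeted lines Pdp2 (-0.84 ± 0.24, adjusted p = 0.00212) and Pdk1 (-0.55 ± 0.19, adjusted p = 0.0163) were the 2 of the 16 called in the authors' deposited table, both lower. That is 12.5%, where 2.96% of all genes were called.

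In dual-targeted lines 20.9% of all genes were called, in single-targeted lines 2.96% and in the clones 19.3%. Among list genes other than the 9, the dual-targeted share was 0% for citrate export and cleavage and 5.88% for the citric acid cycle. It was 4.55% for beta-oxidation, 37.5% for the carnitine shuttle and 20.0% for acetate activation and transport. No list was tested as a set. Of the 7 other genes of citrate export and cleavage, 0 were called by DESeq2 in dual-targeted lines, single-targeted lines or the clones, with 2, 0 and 2 at an unadjusted p under 0.05. Of the 17 other genes of the citric acid cycle 1 was lower in dual-targeted lines, Idh2, the mitochondrial NADP-dependent isocitrate dehydrogenase (-0.98 ± 0.21, adjusted p = 1.70e-05 in the authors' deposited table). Its rebuilt means were 499.6 in wildtype, 353 in single-targeted lines, 246 in the clones and 229 in the reciprocal line. Of 22 genes of beta-oxidation 1 was called, Acad9, an acyl-CoA dehydrogenase that also helps assemble complex I, higher by 1.32 ± 0.59 (adjusted p = 0.0114) in the authors' deposited table. By rebuilt means the clones were the high group, at 2154 against 531 in wildtype and 718 in the reciprocal line. Of the 8 other carnitine genes, Cpt1a, the liver-type carnitine palmitoyltransferase, was lower (-0.94 ± 0.24, adjusted p = 2.60e-04) in the authors' deposited table. There Cpt1c (0.73 ± 0.22, adjusted p = 0.00218), the neuronal isoform, and the acylcarnitine carrier Slc25a20 (0.80 ± 0.28, adjusted p = 0.00596) were higher. Sirt3, the mitochondrial deacetylase known to activate Acss1, was the 1 of 5 other acetate genes called in dual-targeted lines, at -0.59 ± 0.20 (adjusted p = 0.00810) by the authors' deposited table.

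Downstream of acetyl-CoA come fatty acid and sterol synthesis. The fatty acid synthesis list also holds desaturases, acyl-CoA synthetases and malonyl-CoA decarboxylase. Of its 14 genes other than Acaca, 5 were lower and 1 higher in dual-targeted lines, with a median of -0.40, and all 6 called were of these kinds. That is 42.9% called, where 20.9% of all genes were called and 10.1% were lower, and the list itself was not tested. The desaturases Scd1 (adjusted p = 6.12e-09) and Scd2 (adjusted p = 1.82e-10) fell by 1.49 ± 0.24 and 1.05 ± 0.15 on the log2 scale in the authors' deposited table. In the authors' deposited table Acsl1, an acyl-CoA synthetase (-1.47 ± 0.18, adjusted p = 5.93e-14), and Mlycd, malonyl-CoA decarboxylase (-2.24 ± 0.54, adjusted p = 5.55e-05), fell too, and both lie on chromosome 8. The mean count of Mlycd was low, at 30.0. Acacb, Mcat, Mecr and Oxsm of the same list were not called in dual-targeted or single-targeted lines against wildtype. Scd1 had rebuilt means of 659 in wildtype, 328 in single-targeted lines, 184 in the clones and 305 in the reciprocal line. Fasn, the fatty acid synthase, which uses the product of Acaca, stood at -0.08 ± 0.19 (adjusted p = 0.77) according to the authors' deposited table. In single-targeted lines it was at -0.55 ± 0.26 in the authors' deposited table and missed the threshold (adjusted p = 0.0632). Its rebuilt means were 2554 in wildtype, 1546 in single-targeted lines, 2205 in the clones and 2679 in the reciprocal line. In single-targeted lines 3 of the 14 genes were lower and 0 higher, and they were Scd1, Scd2 and Acsl1. That is 21.4%, where 2.96% of all genes were called and 1.47% were lower.

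Of 27 genes of sterol synthesis and its SREBP control, 7 were lower and 0 higher in dual-targeted lines, with a median of -0.24, and 5 were lower and 0 higher in single-targeted lines, with a median of -0.13. The called shares were 25.9% and 18.5%, where 20.9% and 2.96% of all genes were called in either direction. All calls on this list were lower, where 10.1% and 1.47% of all genes were lower, and the list itself was not tested. Msmo1, a sterol oxidase on chromosome 8 (-1.23 ± 0.17, adjusted p = 3.28e-11), and the sterol reductase Tm7sf2 (-0.85 ± 0.23, adjusted p = 4.25e-04) were called lower in the authors' deposited table of dual-targeted lines. Srebf1, which encodes the lipid-gene activator SREBP1, was also lower there (-0.72 ± 0.22, adjusted p = 0.00286, by the authors' deposited table). Between dual-targeted and single-targeted lines 0 of 40 genes of the lipid lists other than Acaca were called by DESeq2, with 6 at an unadjusted p under 0.05. In that comparison 7.06% of all genes were called. Without chromosomes 8 and 14, 8 were lower and 1 higher of 35 lipid genes in dual-targeted lines, and 4 were lower and 0 higher in single-targeted lines. The shares called in either direction are 25.7% and 11.4%, where 20.9% and 2.96% of all genes were called and 10.1% and 1.47% were lower.

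Of 15 genes of amino acid and ketone routes, 2 were lower and 0 higher in dual-targeted lines. That is 13.3%, where 20.9% of all genes were called and 10.1% were lower, so nothing is read from the count. Tdh, the threonine dehydrogenase on which mouse embryonic stem cells rely, fell by 0.99 on the log2 scale (SE 0.28, adjusted p = 6.61e-04), and Mccc2 stood at -0.45 ± 0.20 (adjusted p = 0.0474) in the authors' deposited table. Tdh lies on chromosome 14, and the 54 genes within 5 Mb of it had a median of -0.48 in dual-targeted lines, -0.10 in single-targeted lines and -1.02 in the clones. Its rebuilt means were 2676 in wildtype, 1327 in single-targeted lines, 879 in the clones and 1978 in the reciprocal line. The part of the chromosome in the fall of Tdh was not tested. Of 11 genes of coenzyme A synthesis and transport 1 was called in dual-targeted lines, a share of 9.09% where 20.9% of all genes were called. It was the pantothenate kinase Pank2 (-0.51 ± 0.19, adjusted p = 0.0174, by the authors' deposited table).

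**Figure D4:**
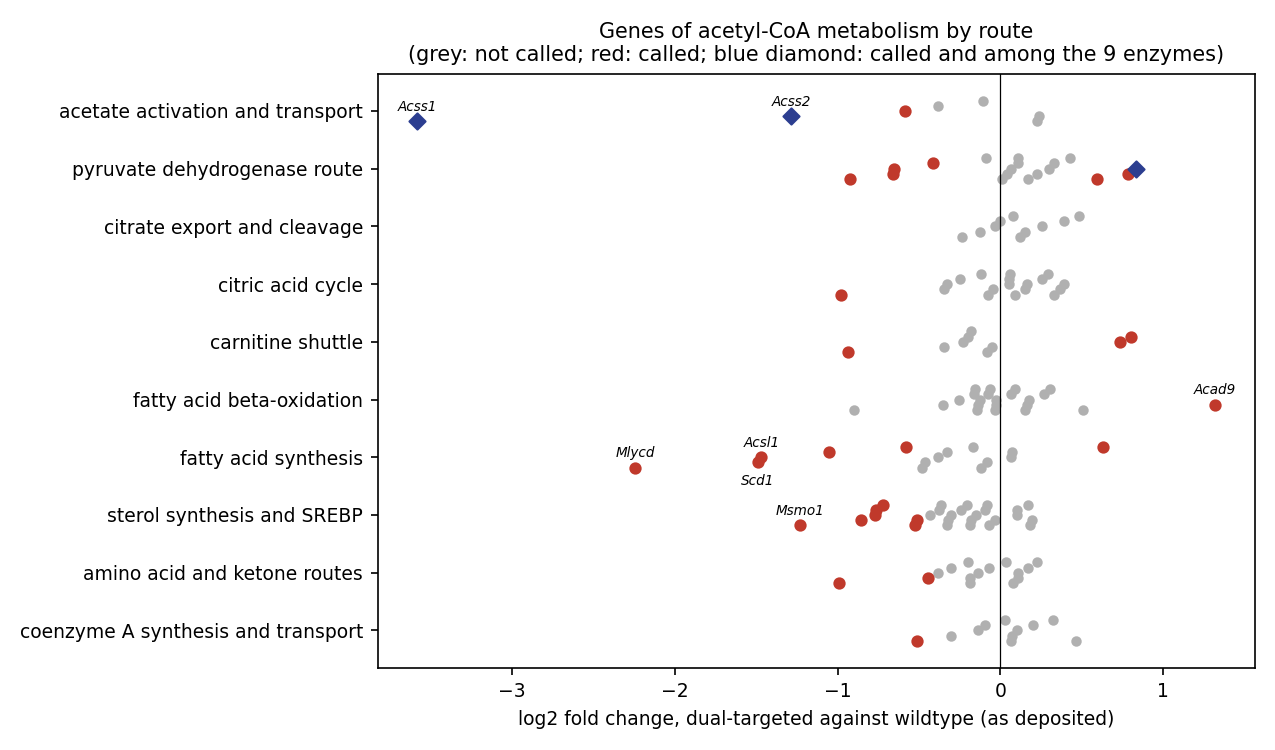
Deposited log2 fold changes in dual-targeted against wildtype cells of genes in 10 lists of acetyl-CoA metabolism, 1 point a gene (grey: not called; red: called; blue diamonds: called and among the 9 enzymes). The lipid lists extend to the left, down to -2.24 for Mlycd, and genes beyond 1.2 in size are named.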

How the data were processed

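TT-seq libraries of 3 wildtype, 2 single-targeted and 3 dual-targeted samples were compared by the authors. The submitters' processing notes name STAR, SAMtools, featureCounts, DESeq2 and deepTools, without versions or settings, and the builds mm10 and GRCm38.p6. The 4 deposited tables hold, per the file headers, a mean normalized count (the signal, over the libraries compared), a log2 fold change, its SE, a p-value and an adjusted p-value. No refit was possible or made; depth per library is unknown. The signed direction was checked from rebuilt means, which had the sign of the fold change for 100% of the genes called in each table whose mean count was 50 or more. Positive values mean more RNA in mutant than wildtype cells, or in dual-targeted than single-targeted lines. Fold changes are read as shrunken, being smaller than their p-values imply. Group means were rebuilt from the 4 means, with scales of 0.978, 1.05 and 0.958 on the single-targeted, dual-against-single and clone tables chosen to bring each group's median gene to its wildtype level, and 2 of 15571 genes came out at or below 0. Approximate intervals are 1.96 SE on each side.

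The 9 genes, the lists and the alternatives were chosen with earlier results of these data known. Genes named were the 9 enzymes, up to 4 called genes of each list by adjusted p, the 3 measured genes on each side of Acss1 and the 5 nearest to it in pattern. A gene that the rule names is not reported here. Pdhb, Dld, Pdk1, Pdk2, Pdk3, Pdk4, Pdp1, Fasn, Acacb, Mcat, Mecr and Oxsm were named after their values were seen. So were Slc16a3, Pigu, Edem2, Gm10130 and the overlapping genes. Positions are from GENCODE mouse release 21 on GRCm38. Promoter sequences are from RefSeq, GRCm38.p6. Software was matplotlib 3.10.9, scipy 1.17.1, pandas 2.3.3, numpy 2.4.6 and Python 3.11.15, and the rebuilding was tested on simulated data. Adjusted p thresholds, the adjustment, a minimum fold, the count minimum, the scales and the lines included were varied.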

Additional observations from a re-analysis of the deposited data

Results flagged for a closer look

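Acss1, Pank2 and Slc16a3 differed between dual-targeted and single-targeted lines by the authors' own test of that difference (DESeq2, adjusted p under 0.05), out of 9 enzymes and 133 other pathway genes tested, where 7.06% of all genes were called. Acss1 was lower in dual-targeted lines, at -1.04 ± 0.46 in the authors' deposited table, and since it was chosen for its fall this is a description. Pank2, which starts coenzyme A synthesis, was at -0.54 ± 0.23 (adjusted p = 0.0400) in the authors' deposited table, with rebuilt means of 784 in wildtype, 829 in single-targeted lines, 515 in the clones and 536 in the reciprocal line. Slc16a3, a carrier of lactate and other monocarboxylates, was higher in dual-targeted lines by 0.80 ± 0.37 (adjusted p = 0.0314) in the authors' deposited table. Neither comparison of Slc16a3 with wildtype was called in the authors' deposited tables (0.24 ± 0.20 in dual-targeted and -0.47 ± 0.33 in single-targeted lines).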

How the results depend on the processing

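With the adjusted p made over every gene with a p, all 36 calls on the 9 enzymes (9 in each of 4 comparisons) kept their direction and side of the threshold, and so did all 9 without the reciprocal line, where 3 were again called. The log2 ratio of rebuilt means moved by more than 1 SE for 2 of 36 values, both in single-targeted lines: Acss2 (-0.48) and Slc25a1 (-0.32). At an adjusted p under 0.01 the dual-targeted against single-targeted comparison called 0 of the 9 enzymes and 0 other pathway genes in place of 2, and the clones called 16 other pathway genes in place of 25. Leaving out chromosomes 8 and 14, chosen after the data were seen, gave 6 such genes in place of 12 in single-targeted lines and 16 in place of 25 in the clones. Joined without scales, the rebuilt mean of Acss1 in the reciprocal line came out at -11.2, and the reciprocal line moved from above wildtype to below it for Cs (1110 against 1341) and Dlat (433 against 578) and to level with it for Slc25a1. No paired analysis was possible because the tables hold no values per library. Other replicates could not be left out for the same reason, and a library's depth is unknown.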
